A study of Homo sapiens with 12 samples.

Results

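The cytosolic ribosomal protein genes encode the protein shell of the 2 ribosome subunits. They were picked by name and biotype alone: protein-coding genes in the 786-O table called RPSA, RPLP0, RPLP1, RPLP2, or RPL or RPS with a number and, in some cases, the ending A, L, X or Y1. The rule found 82 genes of 58735, 33 of the small subunit and 49 of the large subunit, spread over 22 chromosomes. All 82 symbols were also among the 29890 genes of the 5637 table. The libraries came from 2 established human cancer lines grown in RPMI-1640 with serum: 5637, from a bladder carcinoma, and 786-O, from a clear cell renal carcinoma. Each line was sequenced as 3 shCBX7 libraries, in which CBX7 was silenced, and 3 sh control libraries. The labels list no other agent for either arm, and the tables' columns call the arms si. CBX7 is a chromobox subunit of Polycomb repressive complex 1, which keeps target genes silent. The labels do not state whether libraries of the same arm were grown as separate cultures, and p-values therefore cover only the spread among the libraries at hand, possibly a technical one.

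Ribosomal proteins are made from some of the most abundant mRNAs of a growing cell, and each ribosome needs a single copy of nearly all of them. Their mRNAs begin with a 5′ terminal oligopyrimidine (TOP) tract, a C at the cap followed by a run of C and T (U in the RNA), through which mTOR and the RNA-binding protein LARP1 adjust their translation and stability. Ribosomes are assembled in the nucleolus, where RNA polymerase I makes the ribosomal RNA, and many of the small nucleolar RNAs (snoRNAs) that guide its modification are encoded in introns of ribosomal protein genes. When assembly is disturbed, free RPL5 and RPL11 bind the ubiquitin ligase MDM2. Loss of 1 copy of several of these genes causes Diamond-Blackfan anaemia.

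RefSeq promoters (GRCh38.p14) were matched for 65 of the 82 genes, and most of their start sites carried a run of C and T like that of the TOP tract. The windows below run from 40 bases before the start to 20 bases after it, with the unbroken run of C and T over the first transcribed base in capitals. They were chosen as members with a large fall after silencing (RPSA, RPL14, RPL3, RPL7A, RPL18) and, in RPLP1, a member whose change did not pass in either line.
RPSA, chr3:39406680-39406739, plus strand: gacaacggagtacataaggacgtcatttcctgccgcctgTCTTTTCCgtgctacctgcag
RPL14, chr3:40457299-40457358, plus strand: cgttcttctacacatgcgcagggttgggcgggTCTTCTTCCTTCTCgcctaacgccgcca
RPL3, chr22:39319604-39319663, minus strand: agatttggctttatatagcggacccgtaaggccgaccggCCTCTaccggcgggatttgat
RPL7A, chr9:133348178-133348237, plus strand: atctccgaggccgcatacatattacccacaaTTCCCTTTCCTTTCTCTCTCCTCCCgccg
RPL18, chr19:48619159-48619218, minus strand: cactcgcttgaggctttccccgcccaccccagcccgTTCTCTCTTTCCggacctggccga
RPLP1, chr15:69452778-69452837, plus strand: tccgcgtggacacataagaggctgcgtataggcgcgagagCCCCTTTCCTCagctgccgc

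A run of at least 6 C or T over the start was present in 49 of the 65 members (75.4%) and in 8.66% of 15778 other coding genes. The run was 8 bases long in RPSA, 14 in RPL14, 25 in RPL7A and 11 in RPLP1, but 5 in RPL3, which therefore falls outside that count. The first base was C in 76.9% of members against 14.7% of other genes. In the 300 bases from 250 before to 50 after the start, CCGGAAG, a core of ETS family sites such as that of GABP, was found on either strand in 35.4% of members and 16.5% of other genes. CACGTG, the E-box bound by MYC and MAX, was found in 6.15% and 10.9%, GGGCGG, the core of SP1 sites, in 58.5% and 64.3%, and TATAAA in 9.23% and 12.4%. The tract did not sort the members by response: in 786-O the median log2 change was -0.65 for 49 tested members with the run and -0.62 for 15 without it, and in 5637 it was -0.09 for 47 and -0.08 for 15. These are descriptions, without a test.

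Levels are given as FPKM, the fragments of a library that fall in a gene per kilobase of its exons, scaled to the library total. The values imply totals per library of 16503790 to 18966972 reads for 786-O and 19784638 to 32544602 reads for 5637. CBX7 itself was at 1.63, 1.75 and 1.49 FPKM in the 786-O control libraries and 1.01, 0.892 and 1.07 FPKM after silencing, so 61.0% remained. In 5637 it was at 2.19, 2.17 and 2.42 FPKM in control cells and 1.86, 1.80 and 1.97 FPKM after silencing, which left 83.3%. CBX7 was lower in each silenced library of both lines, with p = 0.1 in both by an exact permutation test (two-sided), which cannot go lower for 3 against 3 libraries. The 5637 change (log2 -0.18, limma adjusted p = 0.0188) was lost without the control library numbered 3 (-0.14, limma adjusted p = 0.0586) or the shCBX7 library numbered 2 (-0.16, limma adjusted p = 0.0608). All 7 basal urothelial markers reached 1 FPKM in 5637 and 5 of 7 renal epithelial markers did so in 786-O. Endothelial markers did not reach it in either line, and the defining leukocyte markers CD3E and PTPRC were at or near 0 in both. The summed leukocyte markers went from 16.5 to 20.6 FPKM across 786-O control libraries to 8.44 to 9.43 FPKM after silencing, nearly all of it LAPTM5, and their part in the results was not tested. In 5637 that sum went from 44.0 to 46.0 FPKM to 38.7 to 39.5 FPKM. The summed fibroblast markers went from 2.12 to 2.58 FPKM to 2.93 to 3.44 FPKM in 786-O, with LUM called higher (log2 change 0.50). In 5637 they went from 14.6 to 15.2 FPKM to 12.5 to 13.3 FPKM, with COL1A1 called lower (log2 change -0.20). Of the 6 fibroblast markers 1 reached 1 FPKM in each line, and their part in the results was not tested either.

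In unsilenced cells the members spanned a wide range of levels. The 2 tables were made separately, so levels are set side by side between lines without a test. The highest control means in 786-O belonged to RPS2 (1540 ± 139 FPKM, SD, n = 3), RPL8 (1509 ± 110) and RPS12 (1164 ± 24.2), and in 5637 to RPL7A (689 ± 9.34), RPL8 (668 ± 8.48) and RPS12 (610 ± 29). RPS2 and RPS12 belong to the small subunit, RPL7A and RPL8 to the large. The tested members' median control level was 257 FPKM in 786-O and 171 FPKM in 5637, and 67 of 79 and 55 of 76 reached 100 FPKM. Over the 76 members tested in both lines the control levels had a rank correlation of 0.85, a description across genes. The gene length behind these values is the summed exons of all annotated transcripts, 767 to 9845 bases with a median of 2992, so the level per length of these short mRNAs is understated.

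Several members were at or near 0. RPL39L and RPL10L, copies of RPL39 and RPL10 that are best known from testis, were listed at 0 in all 12 libraries, and RPL3L, the muscle form of RPL3, stayed under 0.12 FPKM. RPS18 differed widely between the tables: it was at 972 ± 29.9 FPKM in 786-O control cells and 0.317 ± 0.010 FPKM in 5637 control cells (SD, n = 3 each). RPS9 was at 276 ± 30.2 and 0.661 ± 0.098 FPKM. Both proteins are core parts of the small subunit. Of 21 genes within 500000 bases of RPS18 that reached 5 FPKM in 786-O control cells, 16 were under 1 FPKM in 5637, and near RPS9 it was 6 of 9. Over all coding genes that share was 5.23%. How the authors' counting treated those regions was not tested, and no level of these members in 5637 is read as low expression. RPS10, RPL17 and RPL36A, which overlap read-through genes on the same strand, were also low in both tables.

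In 786-O cells nearly all members fell. Of 79 tested members, 73 were lower after silencing (92.4%, against 26.2% of all 13220 genes tested; limma, Benjamini-Hochberg adjusted p under 0.05) and 0 were higher (24.7% of all genes). All 79 changes were negative, so 0 were higher at an unadjusted p under 0.05 too, and voom on recovered reads also called 0 higher. The median log2(FPKM + 1) change was -0.58, with quartiles of -0.72 and -0.43, while the median of all genes was -0.01. Between the 3 control and the 3 silenced libraries there was no overlap for 75 members, all lower (31% of all genes). Among genes outside the set at 100 FPKM or more in control cells, 41.1% of 428 were lower, against 95.5% of 67 members at that level. In bulk libraries, fewer cells of a type and less RNA per cell cannot be told apart, and FPKM show shares of the RNA, not amounts per cell.

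Both subunits took part to like extents. Of the small subunit 29 of 33 tested members were lower, with a median change of -0.58, and of the large subunit 44 of 46, with a median of -0.60. The summed FPKM of all members made up 8.91, 8.60 and 8.78% of the FPKM of all genes in the control libraries and 5.73, 5.92 and 5.93% in the silenced libraries. Every silenced library thus lay below every control, and 66.9% of the control share remained. The ratio of small to large subunit sums was 0.759 ± 0.007 in control cells and 0.754 ± 0.009 after silencing (SD, n = 3 each), a difference within the spread of the libraries. The share of ACTB and ACTG1, the cytoplasmic actins, went from 1.06 to 0.111% in the same libraries, and without them in the denominator 66.2% of the members' share remained.

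**Figure D1:**
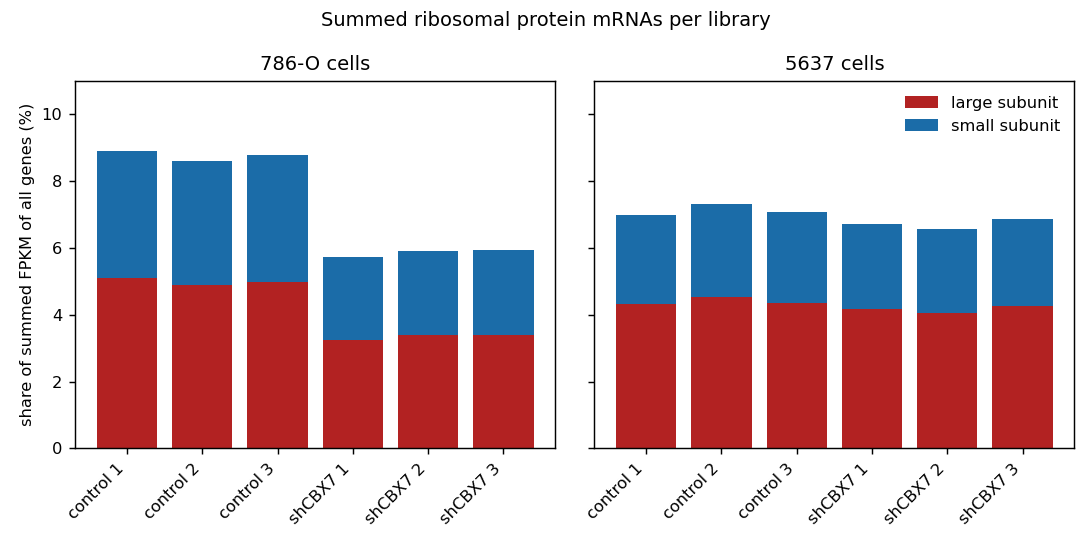
Share of the summed FPKM of all genes held by the ribosomal protein genes, in percent, in each library of 786-O (left) and 5637 (right), with large subunit genes in red and small subunit genes in blue. In 786-O the silenced libraries lie between 5.73 and 5.93% and the controls between 8.60 and 8.91%, while the 5637 libraries lie between 6.56 and 7.33%.

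RPSA, a small subunit protein also known as the laminin receptor, had a large fall in 786-O. Its gene lies at chr3:39406689-39412542 on the plus strand (GRCh38, GENCODE release 29). It was at 525, 479 and 512 FPKM in control cells and 186, 179 and 173 FPKM after silencing. The silenced libraries held 35.5% of the control mean (log2 change -1.49, SE 0.05, limma adjusted p = 1.61e-06). RPS3A, also of the small subunit, changed less, with 219, 211 and 207 FPKM in control cells and 114, 119 and 111 FPKM after silencing (log2 change -0.88).

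The largest falls of the large subunit in 786-O were of similar size to each other. RPL4, which lines the peptide exit tunnel, was at 300, 294 and 292 FPKM in control cells and 135, 133 and 128 FPKM after silencing (log2 change -1.15, SE 0.04). RPL14 was at 116, 113 and 113 FPKM and then 54.3, 55.0 and 49.0 FPKM (log2 change -1.10, SE 0.05). RPL3, which reaches towards the peptidyl transferase centre, was at 417, 394 and 402 FPKM and then 195, 195 and 193 FPKM (log2 change -1.05, SE 0.04). In these 3 genes the silenced libraries all lay under 50% of the lowest control. RPL7 was at 445, 508 and 496 FPKM in control cells and 214, 235 and 232 FPKM after silencing (log2 change -1.08, SE 0.07). RPL35A was at 204, 206 and 214 FPKM and then 91.3, 114 and 121 FPKM, with a wider spread (log2 change -0.94, SE 0.10). The limma adjusted p of these 5 genes ran from 1.74e-06 for RPL4 to 1.92e-04 for RPL35A.

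**Figure D2:**
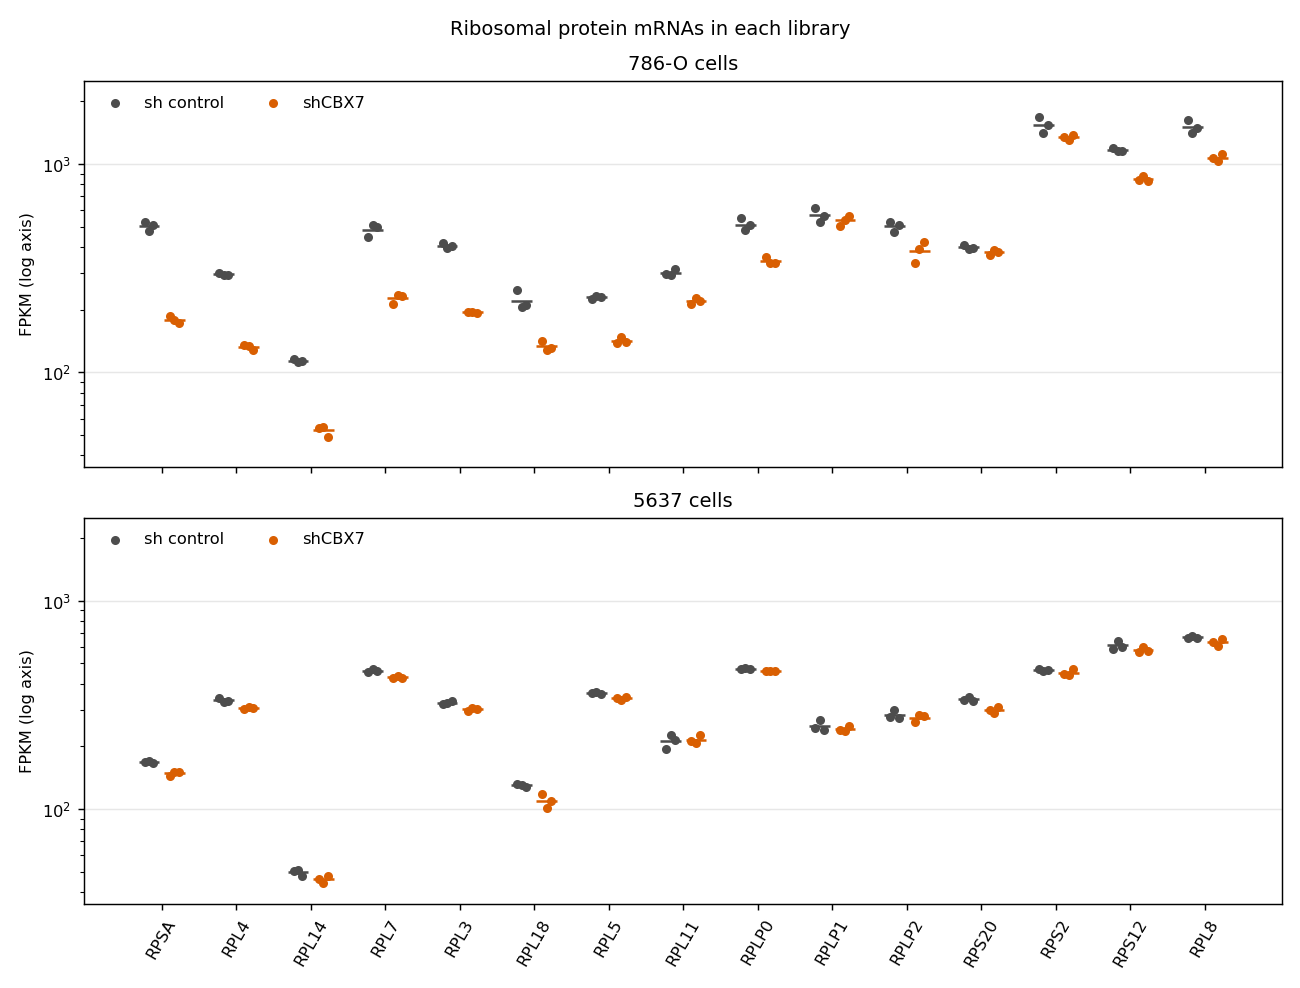
FPKM on a log axis of 15 ribosomal protein genes in each library of 786-O (top) and 5637 (bottom); grey points are sh control, orange points shCBX7, and bars are means of 3 libraries. In 786-O the arms lie far apart for RPSA (525, 479 and 512 against 186, 179 and 173 FPKM) and overlap for RPLP1, while in 5637 they lie close together for all genes shown.

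The members that bind MDM2 and those of the acidic stalk of the large subunit differed in size of change. RPL5 was at 225, 233 and 231 FPKM in 786-O control cells and 138, 148 and 140 FPKM after silencing (log2 change -0.69, SE 0.04, limma adjusted p = 1.84e-05). Its partner RPL11 was at 296, 294 and 313 FPKM and then 213, 227 and 219 FPKM (log2 change -0.45, SE 0.05, limma adjusted p = 1.76e-04). RPLP0, the base of the stalk that recruits elongation factors, was at 548, 482 and 507 FPKM and then 356, 336 and 333 FPKM (log2 change -0.58, limma adjusted p = 1.58e-04). RPLP2 fell by 0.40 on the log2 scale (limma adjusted p = 0.00703). RPLP1, which pairs with RPLP2 on the stalk, was at 614, 528 and 563 FPKM in control cells and 506, 539 and 562 FPKM after silencing. Its arms overlapped and its change of -0.08 did not pass (limma adjusted p = 0.335).

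The other 5 members that did not pass in 786-O were RPS2, RPS10, RPS20, RPS29 and RPL36A. RPS2, the most abundant member there, was at 1682, 1404 and 1533 FPKM in control cells and 1352, 1296 and 1381 FPKM after silencing (log2 change -0.19, limma adjusted p = 0.0528). Its arms did not overlap, and it did pass with a pseudocount of 0.1 (limma adjusted p = 0.0494) and with voom on recovered reads (adjusted p = 0.00174). RPS20 was at 410, 390 and 393 FPKM and then 367, 385 and 376 FPKM (log2 change -0.08, limma adjusted p = 0.157). RPS29 had a change of -0.36 with an SE of 0.16, and RPS10 and RPL36A were under 1.1 FPKM in each 786-O library. Paralogues did not all move alike. RPS4X changed by -0.72 and its Y-linked copy RPS4Y1 by -0.53. RPL26 fell (log2 change -0.71), whereas its copy RPL26L1, outside the naming rule, rose (0.51). RPS27L, a copy of RPS27, changed by -0.23 (limma adjusted p = 0.0333). That call was lost when no filter was set (limma adjusted p = 0.0787) and with quantile normalization (limma adjusted p = 0.0641). It was also lost in several fits with single libraries left out, such as that without the control library numbered 3 (limma adjusted p = 0.109). RPL22, an RNA-binding member of the large subunit, changed by -0.72.

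The size of the fall in 786-O followed neither level nor length. Its rank correlation over 79 members was 0.01 with the control level and -0.09 with the gene length, descriptions across genes of the same libraries. The 28 members with snoRNA genes inside them, 60 snoRNAs in all, had a median change of -0.60, and the 51 without had -0.58. Reads that a counter gives to processed pseudogenes could have moved single members. The 1132 listed ribosomal protein pseudogenes took 4.69% of the combined reads of members and pseudogenes in 786-O control cells and 5.07% after silencing. In FPKM, which do not give a share of the reads, they summed to 7274 in control cells and 5051 after silencing. The members summed to 27812 and 18774 FPKM. The pseudogenes with the highest FPKM were RPS28P7 (1871 FPKM in control cells, 1088 FPKM after silencing), RPS2P5 (1215 and 1092 FPKM) and RPL9P9 (804 and 474 FPKM). With pseudogene values added to their parent genes, 73 members were again lower in 786-O. RPS28 then changed by -0.72 instead of -0.63.

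In 5637 cells the members changed little. Of 76 tested members, 17 were lower (22.4%), a share close to the 20.2% of all 12689 tested genes, so this count is no result about the members. By limma 0 were higher (24.4% of all genes) and 1 was at an unadjusted p under 0.05. Voom on recovered reads called 0 higher, and a pseudocount of 0.1 gave 1. The median change was -0.08, with quartiles of -0.11 and -0.05, and 71 of 76 changes were negative, against a median of 0.01 over all genes and 47.4% negative. The small subunit had 8 of 30 lower and the large subunit 9 of 46, with medians of -0.09 and -0.08. The arms did not overlap for 26 members that were lower (25.7% of all genes) and for RPL26 that was higher. Among genes outside the set at 100 FPKM or more in control cells, 38.7% of 243 were lower. Of 55 members at that level it was 23.6%, the smaller share. The members' share of all FPKM was 6.99, 7.33 and 7.08% in the control libraries and 6.72, 6.56 and 6.87% in the silenced ones, which left 94.2%. The ratio of small to large subunit sums was 0.615 to 0.627 in the control libraries and 0.606 to 0.614 in the silenced ones. These ranges did not overlap, unlike those in 786-O, but the shift was small, with 98.4% of the control ratio left, and it was not tested.

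The count in 5637 moved with the libraries and the scaling. In the control library numbered 2, 62 of 76 members lay above the mean of their arm, and in the shCBX7 library numbered 3 it was 60, while in the shCBX7 library numbered 2 it was 15. With single libraries left out, 12 to 21 members were lower. The widest spread within arms was in RPS29, RPL41, RPL37A and RPS21, the last at 259, 337 and 280 FPKM in control cells and 262, 266 and 305 FPKM after silencing. Voom on recovered reads, which 57 of the 76 members had, called 30 lower (52.6%, against 22.4% of all 11625 genes in that fit).

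Of the members called in 5637, RPL18, a large subunit protein whose gene overlaps SPHK2 on the other strand, was at 132, 131 and 128 FPKM in control cells and 118, 101 and 110 FPKM after silencing (log2 change -0.25, SE 0.05, limma adjusted p = 0.00741). RPSA was at 167, 171 and 167 FPKM and then 143, 151 and 151 FPKM (log2 change -0.18, limma adjusted p = 0.00156). In both genes the arms did not overlap. RPS20 was at 332, 347 and 328 FPKM and then 298, 290 and 308 FPKM (log2 change -0.17, limma adjusted p = 0.00514). The next called falls, RPS15A, RPS7, RPS13 and RPL4, lay between -0.14 and -0.12. The RPS7 call was lost without the mean-variance trend (limma adjusted p = 0.0595), and the RPL4 call with quantile normalization (limma adjusted p = 0.199). RPL5 changed by -0.08 (limma adjusted p = 0.0205), lost with quantile normalization, where the value was 0.00. RPL11 was at 195, 226 and 214 FPKM and then 212, 208 and 226 FPKM, with arms that overlapped (log2 change 0.03, limma adjusted p = 0.744). Of the 3 stalk genes 0 passed by limma, also at an unadjusted p under 0.05, while RPLP0 passed with voom on recovered reads (-0.04, adjusted p = 0.0464) and with median centring. RPL26 was at 3.42, 3.15 and 3.29 FPKM in control cells and 3.56, 3.54 and 3.75 FPKM after silencing (log2 change 0.11, limma adjusted p = 0.0513).

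**Figure D3:**
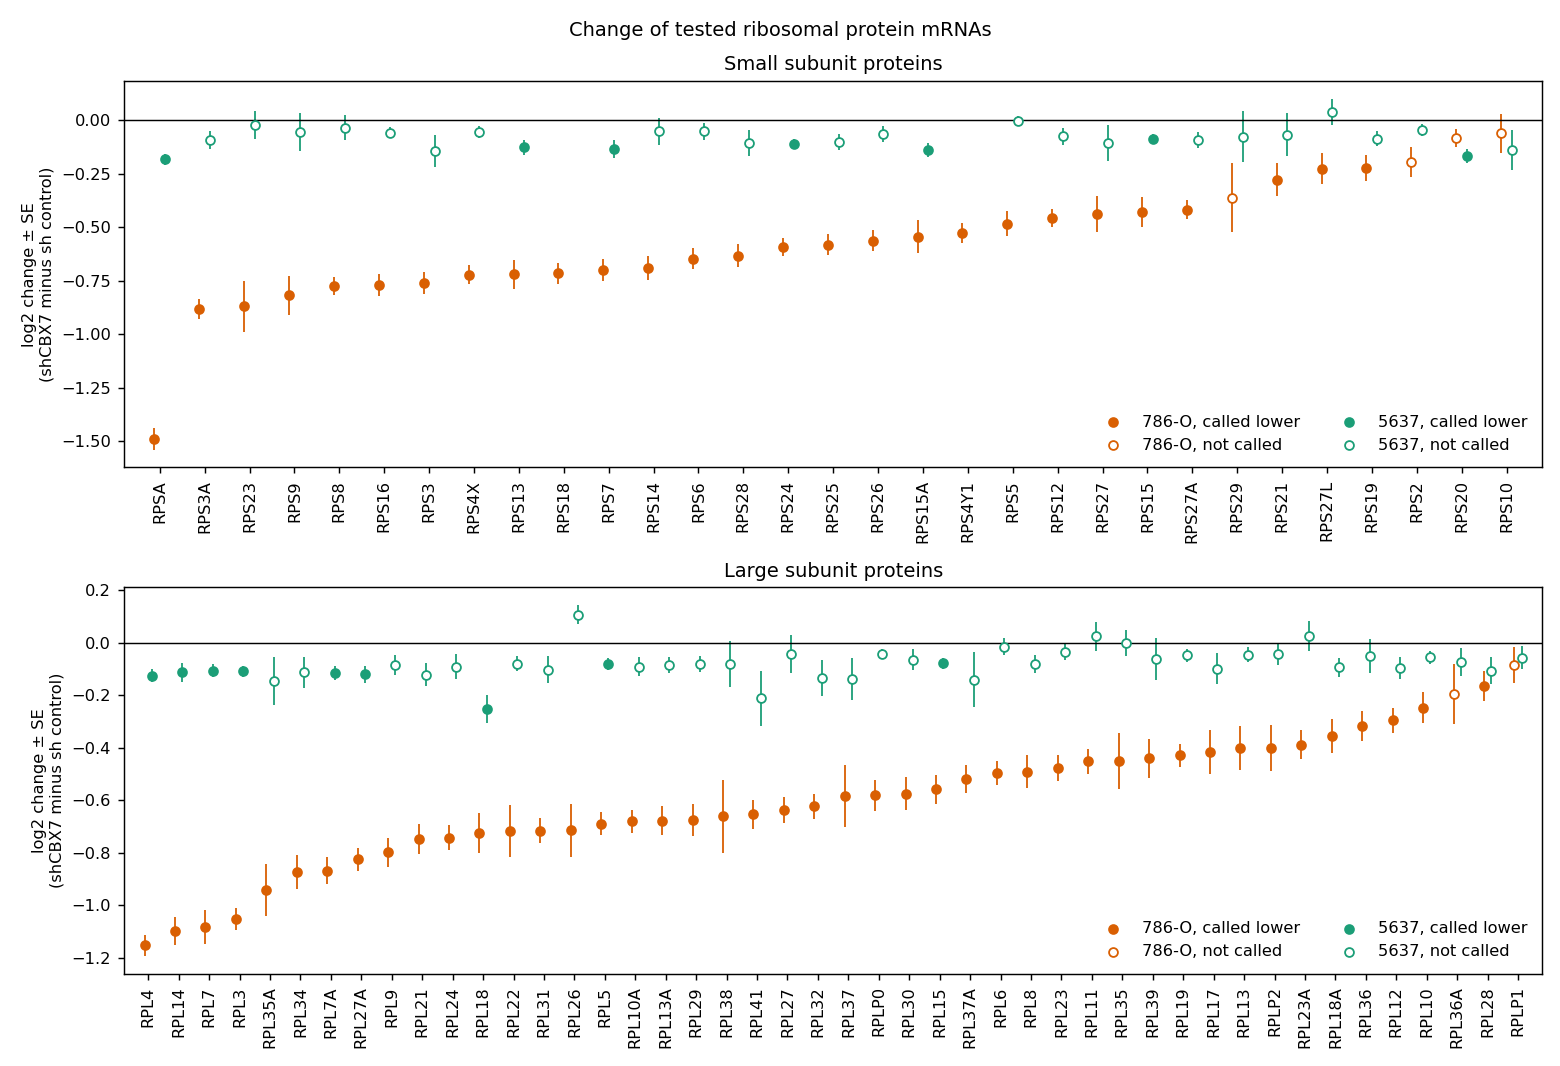
Log2 change of FPKM + 1 (shCBX7 minus sh control, with its SE) of 77 tested ribosomal protein genes, small subunit above and large subunit below, ordered by the 786-O change; orange is 786-O, green is 5637, and filled points passed the test as lower. All points of 786-O lie below 0, down to -1.49 for RPSA, while those of 5637 lie between -0.25 and 0.11.

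The fall was larger in 786-O than in 5637, by a test of the difference itself. In a limma fit over all 12 libraries the change was lower in 786-O for 70 of 79 members (88.6%, against 29% of 12777 genes) and higher for 0 (24.3%), also at an unadjusted p under 0.05. The median difference was -0.49, and it was -0.02 over all genes. Without the members at or near 0 in 5637, RPS4Y1, RPS9 and RPS18 among them, it was 66 of 75 members and a median of -0.48. Large differences were those of RPSA (-1.31, SE 0.06), RPL4 (-1.03, SE 0.04), RPL14 (-0.99, SE 0.07), RPL7 (-0.98, SE 0.07) and RPL3 (-0.94, SE 0.04), with limma adjusted p of 4.97e-07 or below. By subunit, 27 of 33 small and 43 of 46 large subunit members passed. RPS20 (difference 0.09) and RPLP1 (-0.03) did not, with limma adjusted p of 0.167 and 0.802.

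Members called in both lines numbered 16, which is 94.1% of the 17 calls in 5637 and 21.9% of the 73 in 786-O. Those shares lay near the 92.4% of members called in 786-O and the 22.4% called in 5637, so the overlap is no result of its own. Over all 10354 genes tested in both lines the corresponding shares were 31.4% and 21.7%. The call made in 5637 alone was RPS20. Ordered by the smaller of the 2 changes, the leading shared genes included RPL18, RPSA, RPS15A, RPS7, RPS13, RPL4, RPL27A, RPL7A and RPL14. RPL7A, for example, was at 787, 724 and 740 FPKM in 786-O control cells and 423, 417 and 392 FPKM after silencing, and in 5637 at 678, 696 and 691 FPKM and then 619, 647 and 642 FPKM. Its log2 changes were -0.87 and -0.11. Across the 76 members tested in both lines, the changes had a rank correlation of 0.34, which describes genes within the same libraries and carries no p.

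**Figure D4:**
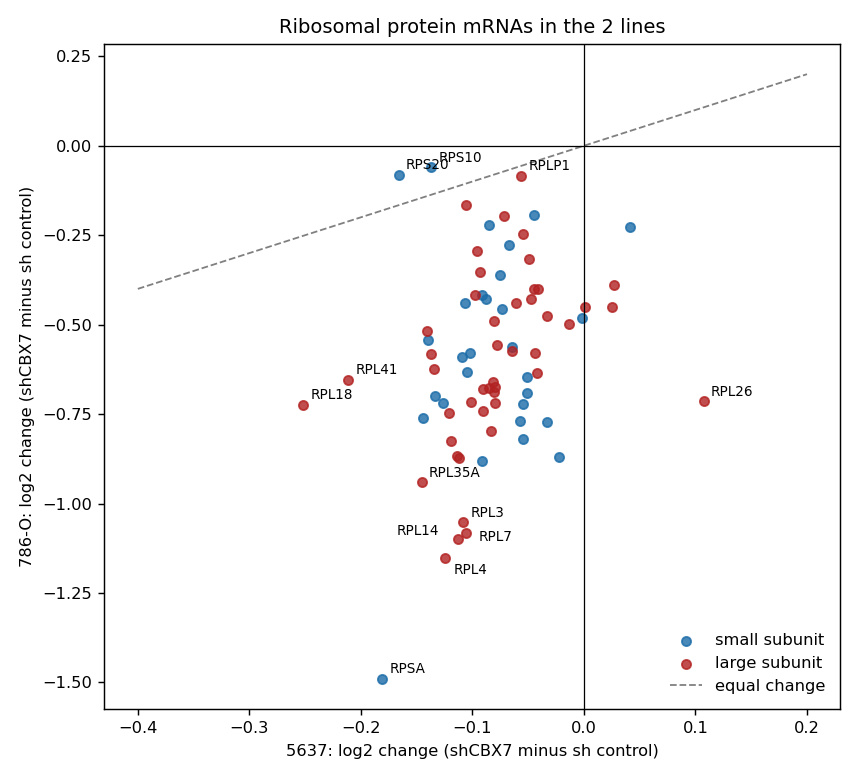
Log2 change in 5637 (x axis) against log2 change in 786-O (y axis) of 75 ribosomal protein genes tested in both lines, shCBX7 minus sh control; blue is the small and red the large subunit, and the dashed line marks equal change. Nearly all points lie below the dashed line, and RPSA (-0.18 and -1.49) lies apart from the rest; RPS10 and RPS20 lie above it.

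The assembly factors that passed mostly fell in 786-O and mostly rose in 5637, and many passed in only 1 of the lines. In 786-O, where 26.2% of all genes were lower and 24.7% higher, 28 of 45 tested small subunit assembly factors fell and 2 rose, 24 of 49 large subunit assembly factors fell and 5 rose, and 11 of 15 genes of RNA polymerase I and its factors fell and 1 rose. NOL6, a factor of the small subunit processome, went from 12.9 ± 0.94 to 6.68 ± 0.13 FPKM (SD, n = 3 each), a log2 change of -0.86 (limma adjusted p = 2.80e-05). GNL3, the nucleolar GTPase nucleostemin, went from 47.7 ± 1.23 to 29.7 ± 0.88 FPKM (log2 change -0.67). POLR1A, the largest RNA polymerase I subunit, went from 2.64 ± 0.13 to 1.07 ± 0.04 FPKM (log2 change -0.81). In 5637, by contrast, 26 of 43 small subunit factors rose and 2 fell, and 38 of 49 large subunit factors rose and 1 fell. Of all genes, 24.4% rose there and 20.2% fell. There NOL6 rose from 6.92 ± 0.21 to 8.51 ± 0.29 FPKM (log2 change 0.26), and POLR1A from 2.24 ± 0.09 to 3.61 ± 0.08 FPKM (log2 change 0.51, limma adjusted p = 1.18e-04). BOP1, of the complex that processes large subunit rRNA, rose in 5637 from 18.1 ± 0.60 to 23.8 ± 0.12 FPKM (log2 change 0.38) and fell in 786-O (log2 change -0.30). Of 12 tested RNA polymerase I genes 4 rose and 2 fell in 5637, with a median change of 0.03, so that list did not follow the assembly factors. TAF1D, of the promoter selectivity factor, fell in both lines (log2 change -0.44 in 5637 and -0.28 in 786-O), as did the subunit POLR1D (-0.13 and -0.28). The difference between lines passed as lower in 786-O for 34 of 45 small and 35 of 49 large subunit factors, and as higher for 0 and 2. These counts were the same at an unadjusted p under 0.05. Of all 12777 genes in that fit, 29% passed as lower and 24.3% as higher. The 45 include WDR46 and AATF, whose means were under 0.02 FPKM in both arms of 5637 and which were tested only through 786-O. Without them it was 33 of 43. For RNA polymerase I it was 7 of 12, with 0 higher. In each of 16 settings, at least 24 small and 31 large subunit factors rose in 5637.

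Nucleolar core proteins followed the same split with an exception. In 786-O 8 of 13 fell and 1 rose, and in 5637 8 rose and 0 fell, also at an unadjusted p under 0.05. Of all genes, 26.2% fell and 24.7% rose in 786-O, and 20.2% fell and 24.4% rose in 5637. The difference between lines passed as lower in 786-O for 10 of the 13 and as higher for 1. Of all genes, 29% passed as lower and 24.3% as higher. NCL (nucleolin) fell in 786-O from 109 ± 4.41 to 71.3 ± 1.68 FPKM (log2 change -0.60) and rose in 5637 from 51.6 ± 0.95 to 63.6 ± 0.08 FPKM (log2 change 0.30). NOLC1, a chaperone of snoRNA particles, rose in both, from 16.9 ± 0.70 to 34.9 ± 0.70 FPKM in 786-O (log2 change 1.01) and from 27.2 ± 0.77 to 40.8 ± 1.47 FPKM in 5637 (log2 change 0.56). Of 7 tested ribosomal protein genes outside the naming rule, 5 fell and 1 rose in 786-O, and 1 fell and 2 rose in 5637. The 5637 counts lie near the shares of all genes and are no result about these genes. RPL22L1 (log2 change -0.39) and RPL36AL (-0.28) fell in 786-O, and in 5637 their changes of 0.09 and -0.04 did not pass. RPL26L1, a copy of RPL26, rose in both lines (log2 change 0.51 in 786-O and 0.36 in 5637), and RPL7L1 fell in 786-O (-0.91) and rose in 5637 (0.21). RACK1, a small subunit protein that binds signalling kinases, fell in both (-0.44 and -0.15).

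**Figure D5:**
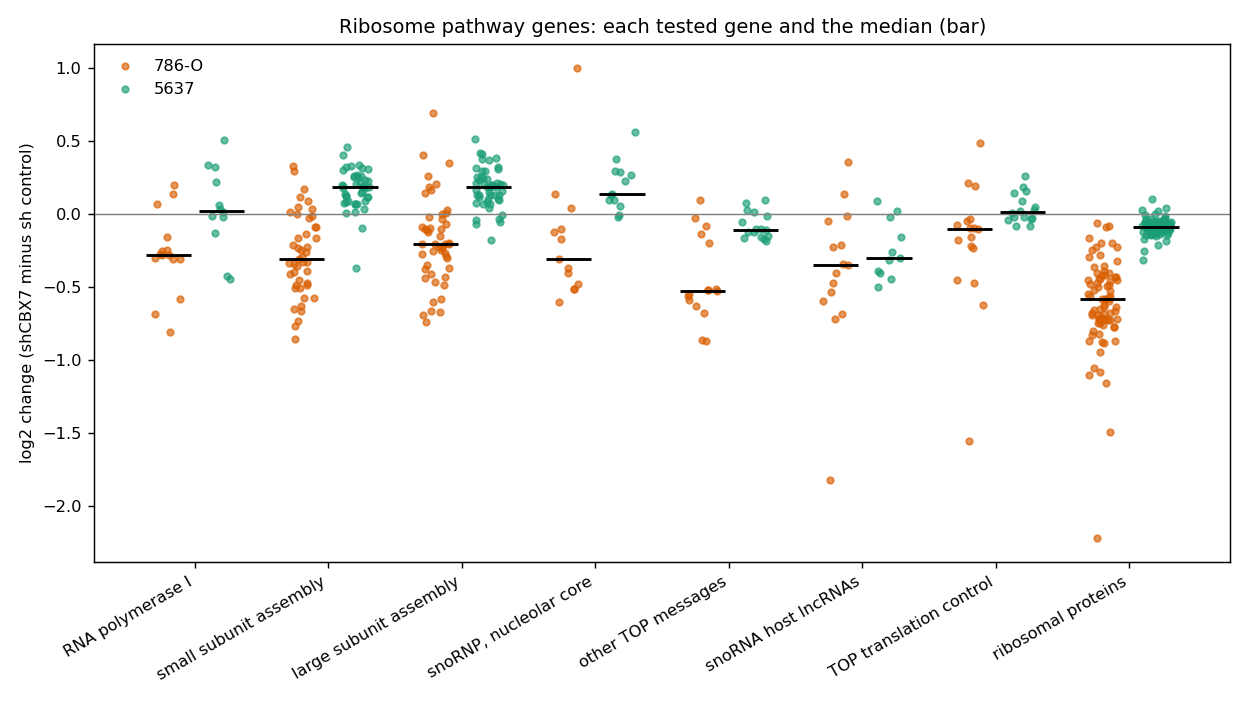
Log2 change (shCBX7 minus sh control) of each tested gene of 7 ribosome pathway lists and of the ribosomal protein genes, in 786-O (orange) and 5637 (green); black bars are medians. The medians of the small and large subunit assembly factors are -0.31 and -0.20 in 786-O and 0.19 and 0.19 in 5637, while the ribosomal proteins have -0.58 and -0.08.

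Other TOP messages, which encode translation factors and share the tract with the members, were mostly lower in both lines: 12 of 16 tested in 786-O (median -0.52, beside 26.2% of all genes lower) and 10 of 16 in 5637 (median -0.10, beside 20.2%), with 0 higher in each (0 and 1 at an unadjusted p under 0.05). HNRNPA1, an RNA-binding splicing regulator, fell in 786-O from 185 ± 6.67 to 101 ± 2.46 FPKM (log2 change -0.87), and EIF2S3, a subunit of initiation factor eIF2, fell in 5637 from 141 ± 3.19 to 124 ± 1.80 FPKM (log2 change -0.18). Long noncoding RNAs that host snoRNAs, many of which also carry the tract, were lower for 11 of 15 in 786-O and 8 of 11 in 5637, with 1 higher in each, beside the same shares of all genes. SNHG16 fell from 15.0 ± 0.33 to 3.53 ± 0.15 FPKM in 786-O (log2 change -1.82) and from 29 ± 1.12 to 20.3 ± 0.83 FPKM in 5637 (log2 change -0.50). Of 17 genes that control TOP translation, 7 fell and 2 rose in 786-O (26.2% and 24.7% of all genes), and of 16 tested in 5637, 2 fell and 5 rose (20.2% and 24.4%). LARP1 fell in 786-O from 14.4 ± 0.29 to 4.26 ± 0.18 FPKM (log2 change -1.56, SE 0.05, limma adjusted p = 1.06e-06), and in 5637 it was at 26.8 ± 0.09 and 27.0 ± 0.62 FPKM (log2 change 0.01, limma adjusted p = 0.83). Its part in the members' fall was not tested.

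MYC, a transcription factor that drives ribosomal genes, rose in both lines, from 50.6 ± 1.62 to 71.0 ± 2.22 FPKM in 786-O (log2 change 0.48) and from 79.1 ± 0.80 to 96.8 ± 0.74 FPKM in 5637 (log2 change 0.29). Of the 8 transcription factors listed for ribosomal protein genes, 2 fell and 3 rose in each line. Over all genes, 26.2% fell and 24.7% rose in 786-O, and 20.2% fell and 24.4% rose in 5637. With 8 factors, counts this near those shares are no result about them. CDKN1A, the cell cycle inhibitor p21, rose in 786-O from 46.2 ± 4.52 to 139 ± 3.38 FPKM (log2 change 1.58) and fell in 5637 from 91.2 ± 0.77 to 84.2 ± 1.31 FPKM (log2 change -0.11). Of the members mutated in Diamond-Blackfan anaemia, 17 of 20 tested were lower in 786-O, beside 92.4% of all members and 26.2% of all genes, and 7 of 19 in 5637, beside 22.4% and 20.2%. RPL31, of the large subunit, fell in 786-O from 141 ± 2.99 to 85.5 ± 3.95 FPKM (log2 change -0.72), and RPS24, of the small subunit, from 117 ± 2.81 to 77.1 ± 1.82 FPKM (log2 change -0.59). RPS19, the member most often mutated in that disease, was at 362, 315 and 318 FPKM and then 291, 278 and 281 FPKM (log2 change -0.22, limma adjusted p = 0.0188).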

How the data were processed

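Per the file headers, the authors deposited 2 tables of FPKM, of 1 line each, with a row per gene and a column per library. Which aligner, counter and strand setting they used is not given in the sources used here. The submitters' processing notes name mm10 although the samples are human. Positions in the 786-O table match GENCODE release 29 for 58724 of 58735 genes. The gene length column holds another measure, the bases of each gene's exons, per the file headers, and comes only with the 786-O table. The 5637 control columns were tied to their group, not to single samples, and keep their column numbers.

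Genes whose mean reached 0.5 FPKM were tested on log2(FPKM + 1) within each line with limma 3.58.1 (R 4.3.3, eBayes with trend) over the whole table, and the interaction of line and silencing over all 12 libraries. Benjamini-Hochberg adjusted p under 0.05 made a call. The scripts were tested on simulated data. Whole reads (tolerance 0.01) were recovered for all genes of 786-O and for 28086 of 29890 (94.0%) of 5637, and voom on them called 7247 of 13220 and 5814 of 11625 genes. Motifs were searched in RefSeq promoters. The members, lists and the rule for named genes were chosen with earlier results of these data known. The rule takes RPSA, RPL5, RPL11, the stalk, paralogues, the largest changes, the extremes of level, shared calls and the largest differences between lines. Members named for not passing, and RPL26, RPS19, RPS21 and other genes named for their role, were chosen after their values were seen. The text and labelled figures leave out items that the rule covers and that are not reported here.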

Additional observations from a re-analysis of the deposited data

Results flagged for a closer look

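The difference between the lines' responses passed a test of its own for 70 of 79 members, all lower in 786-O than in 5637. Of all 12777 genes, 29% passed as lower. Of single members it was large for RPSA (-1.31 on the log2 scale), RPL4 (-1.03), RPL14 (-0.99), RPL7 (-0.98) and RPL3 (-0.94). The same test passed, as lower in 786-O, for 34 of 45 small and 35 of 49 large subunit assembly factors. It was 33 of 43 small subunit factors without WDR46 and AATF, which were near 0 in 5637. The test also passed for 10 of 13 genes of the snoRNA particles and the nucleolar core and 7 of 12 genes of RNA polymerase I. Each line was a separate table, so the line and the table cannot be told apart.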

How the results depend on the processing

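Counts of lower members in 786-O ranged from 68 without the filter on low values to 75 with voom on recovered reads, with 0 higher in each setting, and 70 to 73 with single libraries left out. The difference between lines passed as lower in 786-O for 70 of 79 members (88.6%) in the main fit and 52 of 59 (88.1%) with voom. Its lowest share was 63 of 80 (78.8%), without the filter on low values. It was 66 of 79 with median centring, and 64 to 69 when single libraries were left out. In 5637 the count of lower members was 10 without the filter, which tests more genes, and 30 with voom. It was 25 with median centring, 24 with TMM factors and 12 to 21 with single libraries left out. A member rose there with a pseudocount of 0.1 and without the mean-variance trend (1 each), and 0 to 1 with single libraries left out. With quantile normalization the 5637 values of RPL5 (0.0026), RPL8 (0.032), RPS2 (0.012) and RPS4X (0.017) and the 786-O value of RPS20 (0.0024) changed sign, and the cause was not tested. Small uncalled changes in 5637 moved across 0 with single libraries left out, RPL11 from -0.033 to 0.074 and RPS27L from -0.016 to 0.087. The CBX7 change in 5637 ranged from -0.20 to -0.14 with single libraries left out. Adding pseudogene values was chosen after seeing the data and changed no count of members. The numbers do not pair the libraries: same-numbered libraries had correlated deviations of -0.03 to 0.02 in 5637 and 0.05 to 0.09 in 786-O. With the replicate block 14 members were lower in 5637, 74 in 786-O and 68 in the difference between lines. Depth limits RPS10 (19 to 28 recovered reads per 786-O library) and RPL36A (39 to 71). The members' summed share kept its direction in both lines with TMM factors and without the actins.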
